A study of Danio rerio with 8 samples.

Results

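The genes of the cell cycle and of DNA replication were examined in bulk RNA sequencing of fluorescent hindbrain vestibular neurons from larval zebrafish. Members were 62 of the 28802 genes in the count table. They were taken by symbol alone and with no measured value used, though the choice was made with earlier results of these data known. They were *pcna*, *mki67*, *top2a*, *rrm1* and *rrm2*, every gene whose name starts with *mcm*, *orc*, *gins*, *rfc* or *rpa* and a digit, the A, B, D and E cyclins, the *cdc6*, *cdc7*, *cdc20*, *cdc25* and *cdc45* genes, and the subunits of DNA polymerases alpha, delta and epsilon. The rule reads spelling, so it also took *cdc73*, a subunit of the Paf1 transcription complex, and *mcm3ap*, which acts in mRNA export. These 2 were kept in every count but are described apart.

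Siblings were *phox2a*+/+ or *phox2a*+/- larvae pooled together, and null larvae were *phox2a*-/-, a genotype in which the oculomotor and trochlear motor neurons do not form. Both carried the Tg(UAS:E1b-Kaede) reporter, Tg(isl1:GFP) and the driver Tg(-6.7Tru.Hcrtr2:GAL4-VP16), and both were taken at 72 to 74 hpf. The study used the alleles *phox2a* d22, d19 and i2, on a pigment-free *mitfa*-/- background, and which allele entered which library is not given in the sources used here. Larvae were assigned to a genotype by GFP in the motor nuclei, many larvae were pooled per library, and cells were sorted on green fluorescence, which does not separate Kaede from GFP and does not mark projection neurons alone. Each of 4 experimental repeats gave 1 library per genotype. The repeats are lettered A to D here, and A to C were compared, 3 libraries against 3, because the study left out 1 repeat with very few transcripts.

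Cells that divide copy their DNA in a fixed order. The origin recognition complex and *cdc6* load the MCM helicase on DNA in G1, the kinase Cdc7 with Cdc45 and the GINS complex turn the helicase on, and polymerases alpha, delta and epsilon extend the new strands. The clamp PCNA is placed by the loader RFC, RPA coats the single strands, and ribonucleotide reductase supplies the nucleotides. Cyclins and Cdc25 phosphatases time these steps, and Ki-67 and topoisomerase II alpha are abundant in cycling cells. Neurons leave the cell cycle for good when they differentiate, so most of these genes are known as progenitor genes in the hindbrain. PCNA, RFC, RPA and several polymerase subunits also serve DNA repair, which goes on in neurons.

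Gene reads numbered 18657956 to 19968857 in the 3 sibling libraries and 9579375 to 16992689 in the 3 null libraries. A gene without reads could still have up to 3, which is between 0.150 and 0.313 counts-per-million (CPM) for counting error alone. Null C, meaning the null library of repeat C, stood apart before any result. It had reads on 11087 genes, against 16675 to 18409 in the other 5, and 62.4% of its listed reads were not aligned, against 11.8% to 16.1%. The mutated gene *phox2a* had 9355, 9465 and 4151 reads in siblings A, B and C and 1125, 2811 and 1015 in null larvae (log2 fold change -1.22, standard error 0.62, edgeR adjusted p = 1.00). All 11 neuronal markers on the list, among them *elavl3* and *snap25a*, had reads in all 6 libraries. Levels below are CPM after TMM scaling, a scaling over all genes that gave null C a factor of 0.518 and the other 5 libraries factors of 1.1 to 1.22. In bulk libraries, fewer cells of a type and less RNA per cell cannot be told apart. Levels are not divided by transcript length, so they are compared between libraries and not between genes.

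Reads were found for 61 of the 62 members, and *gins4* had none in any of the 6 libraries. Of these, 19 had reads in all 6 libraries (31.1%, against 37.6% of the 23680 genes with reads). The number of members with reads was 45, 50 and 36 in siblings A, B and C and 46, 51 and 32 in null A, B and C. Repeat B held the most in both genotypes and repeat C the fewest. Over all genes, repeat C also had the fewest with reads, 16675 in siblings and 11087 in null larvae. The summed level of all members was 556, 856 and 500 CPM in siblings and 578, 861 and 872 CPM in null larvae, or 637 ± 192 against 770 ± 166 CPM (SD, n = 3 libraries each). The ranges overlapped. Without TMM scaling, the same sums were 643, 1031 and 554 CPM in siblings and 640, 942 and 448 CPM in null larvae, so that null C moved from the highest of the null libraries to the lowest.

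**Figure D1:**
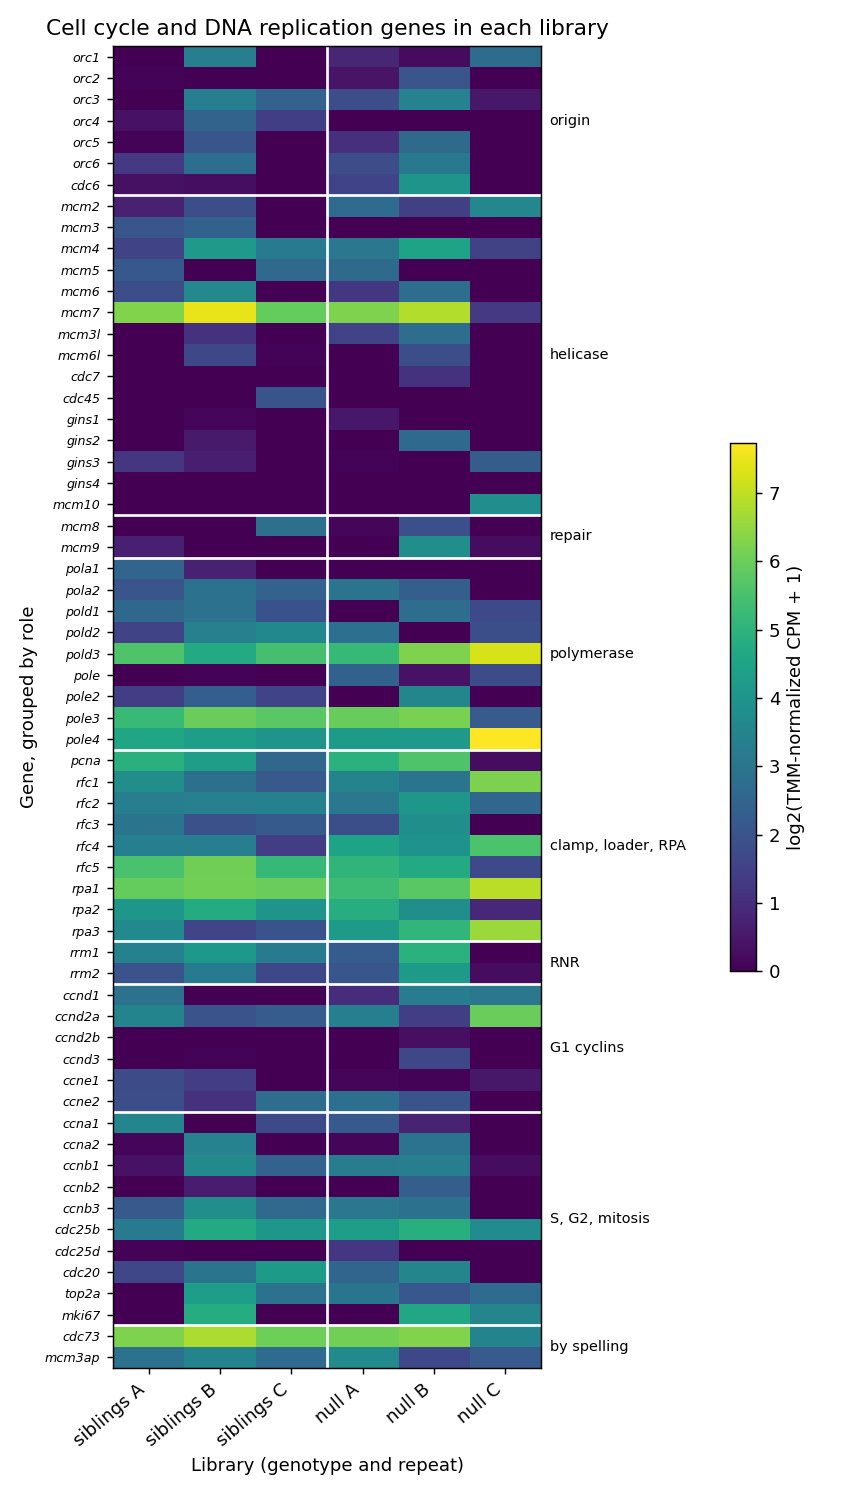
Level of each of the 62 members (vertical axis, grouped by role) in the 6 libraries (horizontal axis), as log2 of TMM-normalized CPM plus 1. The clamp, loader and single-strand binding genes are filled in nearly every library, whereas origin, helicase and mitotic genes are patchy and fullest in repeat B. Of the 61 members with reads, 29 are empty in null C (47.5%, against 53.2% of all genes with reads).

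Enough reads for a test were present for 41 members, as for 14824 genes in all. The thresholds of the study were an adjusted p under 0.05 with an absolute log2 fold change over 2. No member and no other gene passed them in edgeR's quasi-likelihood test (0.0% of 14824 genes). The study itself applied them in DESeq2, for which results are given below. At an unadjusted p under 0.05 there was 1 member, *rpa3*, of 41, against 477 genes or 3.22% of those tested. It was higher in null larvae, as were 2.46% of genes at that p, while 0.762% were lower. Of the 41 members, the 3 null libraries lay above the 3 sibling libraries for 2, *rfc4* and *rpa3*, against 3.09% of all genes tested. They lay below them for 1 of the 41, *rfc5*, against 7.52%. Without TMM scaling these counts were 2 (background 1.66%) and 2 (9.59%), and without null C they were 4 (9.7%) and 2 (10.4%). Among the 21 members with too few reads for this test, the null libraries lay above all siblings for *pole* and below them for *orc4*. No share over all genes with too few reads was counted, so these 2 have no background. In this fit the members held no larger share than the background at the unadjusted p. In DESeq2 the count was 9 of 52 members at an unadjusted p under 0.05 (17.3%), against 5.66% of 21539 genes. These were *orc2*, *orc4*, *cdc6*, *mcm3*, *mcm10*, *pola1*, *pole*, *rfc4* and *rpa3*, of which *orc4*, *mcm3*, *mcm10* and *pola1* had no reads in one genotype. All but *rfc4* and *rpa3* had too few reads for the edgeR filter. Of the 9, *orc4*, *mcm3* and *pola1* were fitted lower in null larvae and the others higher. Members without a DESeq2 p, such as *pole4* and *rfc1*, are outside the 52. No share over equally sparse genes was counted, so the larger share is not read as a result about the members. DESeq2 called 2 of the 52 members with a p-value, *mcm10* and *pole*, against 0.594% of 21539 genes, and 1 of the 2 rests on reads in a single library. The study, which used DESeq2 on libraries of this same series, also listed both as higher in null larvae, so its listing is not separate evidence. It concluded that the differences in its data came from noise or from other labelled cells, and not from projection neurons. The median log2 fold change was 0.09 over the 41 members and -0.15 over all genes. Fitted values were higher in null larvae for 22 members and lower for 19.

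**Figure D2:**
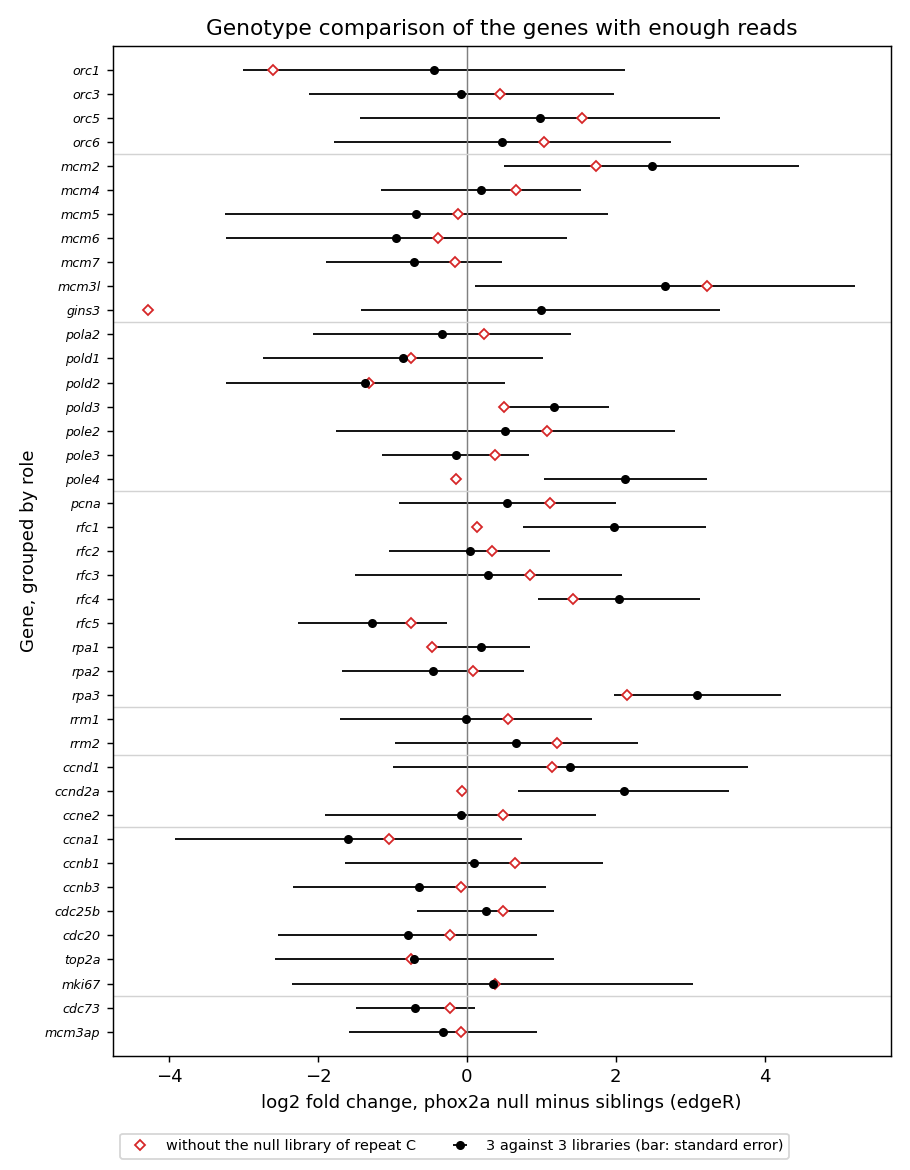
Log2 fold change of null larvae against siblings (horizontal axis) for the 41 members with enough reads (vertical axis, grouped by role). Black points with standard error bars use 3 libraries against 3, and open diamonds leave out null C. *rpa3* is farthest to the right at 3.09 and keeps 2.15 without null C, while *pole4*, *rfc1* and *ccnd2a* lie near 2 with null C and near 0 without it.

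Origin recognition and helicase loading was covered by 7 members, and none of them had reads in all 6 libraries. Their summed level was 2.08, 32.0 and 6.04 CPM in siblings A, B and C and 9.20, 41.3 and 6.10 CPM in null larvae. In both genotypes repeat B was several times above A and C. *orc3*, a core subunit of the complex and the member with most reads of this group, had 0, 210 and 90 reads in siblings and 48, 162 and 2 in null larvae. Its level was 4.48 ± 4.54 CPM in siblings against 4.24 ± 4.90 CPM in null larvae (SD, n = 3 each), a difference far below either spread. *orc5* and *orc6* had their highest level in repeat B in both genotypes too, with 75 and 90 reads of *orc5* and 138 and 128 reads of *orc6* in siblings B and null B. *orc4* had 7, 104 and 35 reads in siblings and none in the 3 null libraries. Taken against the limit of 3 reads per library, its mean level was at least 6.84-fold lower in null larvae for counting error alone. It had too few reads for the edgeR filter, and in DESeq2 its adjusted p was 0.13. *cdc6*, which loads the helicase together with the complex, had 6, 5 and 0 reads in siblings and 36, 250 and 0 in null larvae, and *orc1* had 207 sibling reads, all in repeat B. *orc2* had 1, 0 and 0 reads in siblings and 6, 52 and 0 in null larvae.

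The replicative helicase and its activators were covered by 15 members. *mcm7*, a core subunit of the helicase, had the most reads of this group, 1755, 4121 and 1224 in siblings A, B and C and 1403, 1906 and 7 in null A, B and C. Its level was 76.0, 178 and 59.2 CPM in siblings and 74.6, 115 and 1.42 CPM in null larvae. Null C lay far below the other 5, which overlapped. The log2 fold change was -0.71 (standard error 1.18) and -0.16 without null C. *mcm4*, another core subunit, had reads in every library, at 1.99, 17.2 and 8.03 CPM in siblings and 7.39, 21.7 and 1.83 CPM in null larvae, highest in repeat B in both. The remaining core subunits were each absent from 1 or more libraries. *mcm2* had 15, 60 and 0 reads in siblings and 105, 29 and 54 in null larvae, a log2 fold change of 2.48 with a standard error of 1.99. *mcm5* had 78, 0 and 110 reads in siblings and 101, 0 and 0 in null larvae, the one core subunit with none in repeat B. *mcm6* had 60, 268 and 0 reads in siblings and 26, 98 and 0 in null larvae, so repeat B was highest and repeat C empty in both genotypes. *mcm3* had 74 and 100 reads in siblings A and B and none in sibling C or in any null library. Against the limit of 3 reads per library it was at least 7.93-fold lower in null larvae for counting error alone, from reads in 2 sibling libraries. In DESeq2 the adjusted p of *mcm3* was 0.42.

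The loaded helicase is turned on by genes that were hardly detected. *cdc45* had 62 reads, all in sibling C, *cdc7* had 20, all in null B, and *gins1*, *gins2* and *gins3* had at most 88 reads in any library. *mcm10*, which helps to start the activated helicase, had 63 reads, and all of them were in null C. DESeq2 called it higher in the null libraries at a log2 fold change of 22.64 (adjusted p = 1.1e-05), a value that rests on that single library. Against the limit of 3 reads per library it was at least 31.6-fold higher for counting error alone, from the same 63 reads. *mcm3l* and *mcm6l*, genes named as like *mcm3* and *mcm6*, had 28 and 51 reads in sibling B and 97 and 43 in null B. Beyond repeat B, *mcm3l* had 36 reads in null A and *mcm6l* had 1 in sibling C. Summed over the group, the level was 89.2, 219 and 75.6 CPM in siblings and 96.7, 159 and 30.9 CPM in null larvae. Repeat B was again the highest in both genotypes. The repair helicases *mcm8* and *mcm9* work in recombination rather than at origins. *mcm9* had 14, 0 and 0 reads in siblings and 0, 220 and 1 in null larvae, and *mcm8* had 129 reads in sibling C, 2 in null A and 45 in null B.

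DNA polymerases showed a different layout, with 3 of 9 members read in every library. *pold3*, an accessory subunit of polymerase delta, had the highest mean CPM of the group over the 6 libraries, not corrected for transcript length. Its level was 48.1, 25.4 and 42.9 CPM in siblings and 35.2, 75.5 and 152 CPM in null larvae, with overlap between the genotypes. The log2 fold change was 1.17 (standard error 0.73) and 0.50 without null C. *pole3* and *pole4*, the small histone-fold subunits of polymerase epsilon, were also read throughout. *pole3* had 36.3, 62.4 and 53.3 CPM in siblings and 60.8, 72.4 and 3.66 CPM in null larvae. *pole4* had 22.6, 18.8 and 15 CPM in siblings, 17.4 and 16.8 CPM in null A and B, and 213 CPM in null C. In null C these partner subunits lay at opposite ends of their ranges, and the log2 fold change of *pole4*, 2.13 over 3 against 3 libraries, was -0.15 without it.

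The catalytic subunits were sparser. *pole*, the catalytic subunit of polymerase epsilon, had 0, 1 and 0 reads in siblings and 80, 5 and 12 in null larvae, so the null libraries lay above the siblings in all 3 repeats. It had too few reads for the edgeR filter, and how often such sparse genes show this layout was not counted. DESeq2 called it with a log2 fold change of 7.31 (adjusted p = 0.041), and null A held 80 of the null reads. In edgeR with no filter, no gene was called and *pole* did not reach an unadjusted p under 0.05. It reached that p in edgeR without sibling B and without null B, and was not called. *pola1*, the catalytic subunit of polymerase alpha, had the opposite layout, with 110, 15 and 0 reads in siblings and none in null larvae. Against the limit of 3 reads per library it was at least 5.70-fold lower for counting error alone. In DESeq2 its adjusted p was 0.61. *pold1*, the catalytic subunit of polymerase delta, had 118, 153 and 60 reads in siblings and 0, 97 and 11 in null larvae (log2 fold change -0.85, standard error 1.88), and it was called only when repeat D was included. The accessory subunits *pola2*, *pold2* and *pole2* each had no reads in 1 or 2 null libraries. Their log2 fold changes were -0.34, -1.36 and 0.52, each smaller than its standard error.

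The clamp, its loader and the single-strand binding proteins were the most completely read of the replication groups. All 9 members had enough reads for the test, and 8 of them had reads in all 6 libraries, against at most 3 in any other role group. Their levels were not even. For 4 of the 9 (44.4%), null C alone held most of the null level, against 17.6% of all genes with reads. *pcna* had 674, 448 and 102 reads in siblings and 555, 800 and 1 in null larvae. Its level was 29.2, 19.4 and 4.93 CPM in siblings and 29.5, 48.2 and 0.203 CPM in null larvae. Repeat C was lowest in both genotypes, and the log2 fold change was 0.54 (standard error 1.46). Without null C, both null libraries lay above the siblings, at the closest 29.5 against 29.2 CPM.

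Within the loader, *rfc4* and *rfc5*, small subunits of the same ring, stood in opposite order. *rfc4* had 9.23, 9.0 and 1.64 CPM in siblings and 21.7, 14.3 and 46.1 CPM in null larvae, or 6.62 ± 4.31 against 27.4 ± 16.7 CPM (SD, n = 3 each). All null libraries lay above all siblings, and the log2 fold change of 2.04 had a standard error of 1.09 (edgeR adjusted p = 1.00). *rfc5* had 44.4, 66.1 and 35.3 CPM in siblings and 32.4, 25.6 and 2.24 CPM in null larvae, or 48.6 ± 15.8 against 20.1 ± 15.8 CPM. All null libraries lay below all siblings, and the log2 fold change of -1.27 had a standard error of 1.00 (edgeR adjusted p = 1.00). Neither difference passed the test. Without null C the log2 fold changes were 1.43 for *rfc4* and -0.76 for *rfc5*, and the genotypes still did not overlap for either. *rfc1*, the large subunit, had 13.3, 6.19 and 3.43 CPM in siblings, 10.05 and 6.81 CPM in null A and B, and 73.7 CPM in null C. *rfc2* lay between 4.88 and 16.1 CPM in all 6 libraries, with a sibling spread of 9.28 ± 0.330 CPM, and *rfc3* had no reads in null C.

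RPA is a complex of a large, a middle and a small subunit, encoded by *rpa1*, *rpa2* and *rpa3*. *rpa3* had 274, 48 and 63 reads in siblings and 334, 545 and 467 in null larvae. Its level was 11.9, 2.08 and 3.05 CPM in siblings and 17.8, 32.8 and 94.9 CPM in null larvae, or 5.66 ± 5.39 against 48.5 ± 40.9 CPM (SD, n = 3 each). The null library was the higher one in 3 of 3 repeats, by the narrowest margin in repeat A. The log2 fold change of 3.09 (standard error 1.12) passed 0.05 only before adjustment, and the edgeR adjusted p over all genes was 1.00. DESeq2 gave 3.37 with an adjusted p of 0.15. The log2 fold change was 3.31 with the repeat as a block, 2.41 with library size alone, and 2.15 to 4.18 with single libraries left out. It missed 0.05 before adjustment with the block, with library size alone, over all 4 repeats, and without sibling B, sibling C or null C. The other subunits of the complex did not share this order. *rpa1* had 59.6, 66.9 and 61.9 CPM in siblings and 38.3, 53.5 and 123 CPM in null larvae. Its log2 fold change of 0.19 became -0.41 with library size alone and -0.46 without null C. *rpa2* had 16.1, 26.2 and 15 CPM in siblings and 27.2, 13.6 and 0.813 CPM in null larvae. Whether the subunits differed from each other in response to genotype was not tested.

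**Figure D3:**
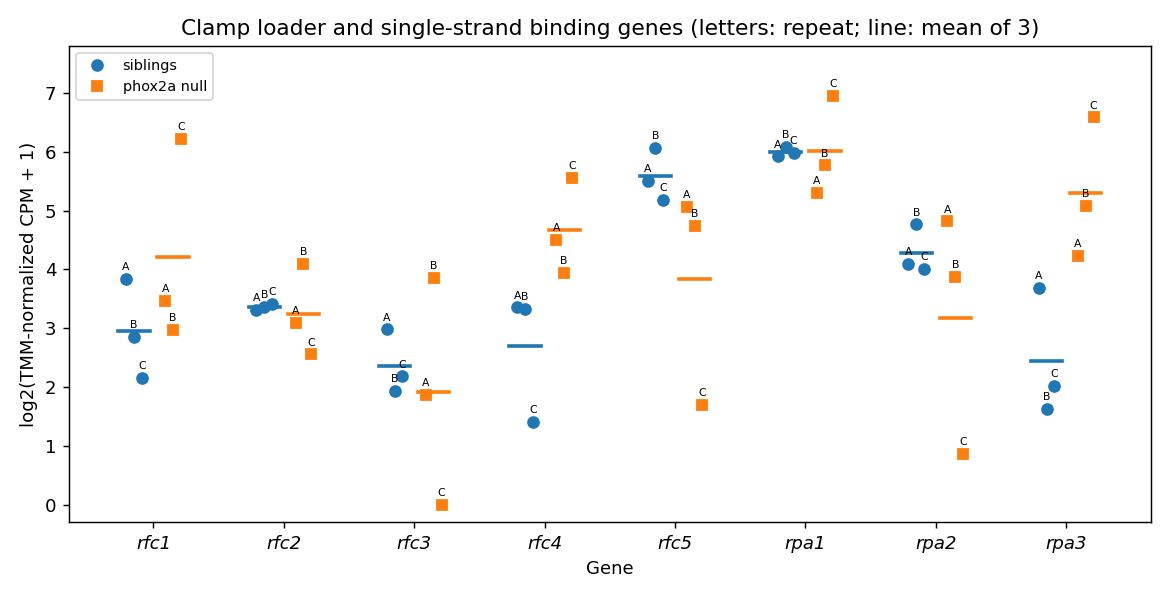
Levels of the 5 clamp loader and 3 single-strand binding genes (horizontal axis) as log2 of TMM-normalized CPM plus 1 (vertical axis), 3 sibling and 3 null libraries each, with the repeat as a letter and the mean as a line. Null libraries lie wholly above siblings for *rfc4* and *rpa3* and wholly below for *rfc5*, and the null point marked C is the highest or the lowest of the 6 for each of the 8 genes.

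Ribonucleotide reductase, which makes deoxyribonucleotides, was highest in the same repeat in both genotypes. *rrm1*, its large subunit, had 9.53, 16.3 and 8.27 CPM in siblings and 3.77, 30.01 and 0 CPM in null larvae. *rrm2*, the small subunit that cycling cells make in S phase, had 2.95, 8.22 and 2.18 CPM in siblings and 3.24, 17.7 and 0.203 CPM in null larvae. Both were highest in repeat B and lowest in repeat C in each genotype. Their log2 fold changes were -0.01 (standard error 1.69) and 0.67 (standard error 1.63), so genotype differences were smaller than the spread between repeats.

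The D and E cyclins, which act with G1 kinases, were mostly sparse. *ccnd2a* had the most reads among them, 235, 68 and 78 in siblings and 173, 28 and 306 in null larvae. Its level was 10.2, 2.94 and 3.77 CPM in siblings, 9.20 and 1.69 CPM in null A and B, and 62.2 CPM in null C. The log2 fold change was 2.11 (standard error 1.42) with null C and -0.06 without it. *ccnd1* had 147, 0 and 0 reads in siblings and 18, 141 and 36 in null larvae. *ccnd3* had 1 read in sibling B and 37 in null B and none elsewhere, and *ccnd2b* had 4 reads, all in null B. Among the E cyclins, which start S phase, *ccne1* had 57, 38 and 0 reads in siblings and 2, 1 and 2 in null larvae, too few for the edgeR filter. *ccne2* had 61, 27 and 120 reads in siblings and 114, 49 and 0 in null larvae (log2 fold change -0.08, standard error 1.82).

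Among the genes of S phase, G2 and mitosis, *ccna2* and *ccnb2* were read almost only in repeat B, and *mki67* mostly there. *mki67*, which encodes Ki-67, had 0, 615 and 0 reads in siblings and 0, 386 and 52 in null larvae. Repeat A had none in either genotype, and repeat B was the highest in both, at 26.6 and 23.3 CPM. Null C had 10.6 CPM. *ccna2*, the cyclin of S phase and G2 in dividing somatic cells, had 2, 224 and 0 reads in siblings and 2, 112 and 0 in null larvae. *ccnb2*, a mitotic cyclin, had 12 and 67 reads in siblings and null larvae of repeat B and none in any other library. All reads of *ccna2* beyond 4, and all reads of *ccnb2*, thus came from repeat B.

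The other mitotic genes were spread more widely. *ccnb1*, the main mitotic cyclin, had 0.303, 11.9 and 4.45 CPM in siblings and 8.51, 8.98 and 0.203 CPM in null larvae (log2 fold change 0.09, standard error 1.73). *cdc25b*, a phosphatase that releases cells into mitosis, had the most reads in this group, 190, 596 and 336 in siblings and 359, 468 and 62 in null larvae. It was read in all 6 libraries at 8.23, 25.8 and 16.2 CPM in siblings and 19.1, 28.2 and 12.6 CPM in null larvae, and the log2 fold change was 0.25 (standard error 0.92). *top2a*, which untangles replicated chromosomes, departed from the pattern, with 0, 446 and 133 reads in siblings and 131, 55 and 27 in null larvae. Repeat B was highest in siblings only, and the log2 fold change was -0.71 (standard error 1.87). *ccna1*, an A cyclin known from mouse germ cells and frog embryos, had 242, 0 and 48 reads in siblings and 66, 11 and 0 in null larvae, highest in repeat A. *ccnb3* had 81, 302 and 109 reads in siblings and 138, 110 and 0 in null larvae, *cdc20*, an activator of the anaphase-promoting complex, had 50, 160 and 366 and then 90, 175 and 0, and *cdc25d* had 1 and 25 reads in siblings A and null A and none elsewhere. Over the 10 members of the group the summed level was 24.8, 114 and 52.4 CPM in siblings and 51.6, 92.4 and 28.8 CPM in null larvae, or 63.7 ± 45.5 against 57.6 ± 32.2 CPM (SD, n = 3 each). The difference between genotypes was smaller than the spread between repeats within either.

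**Figure D4:**
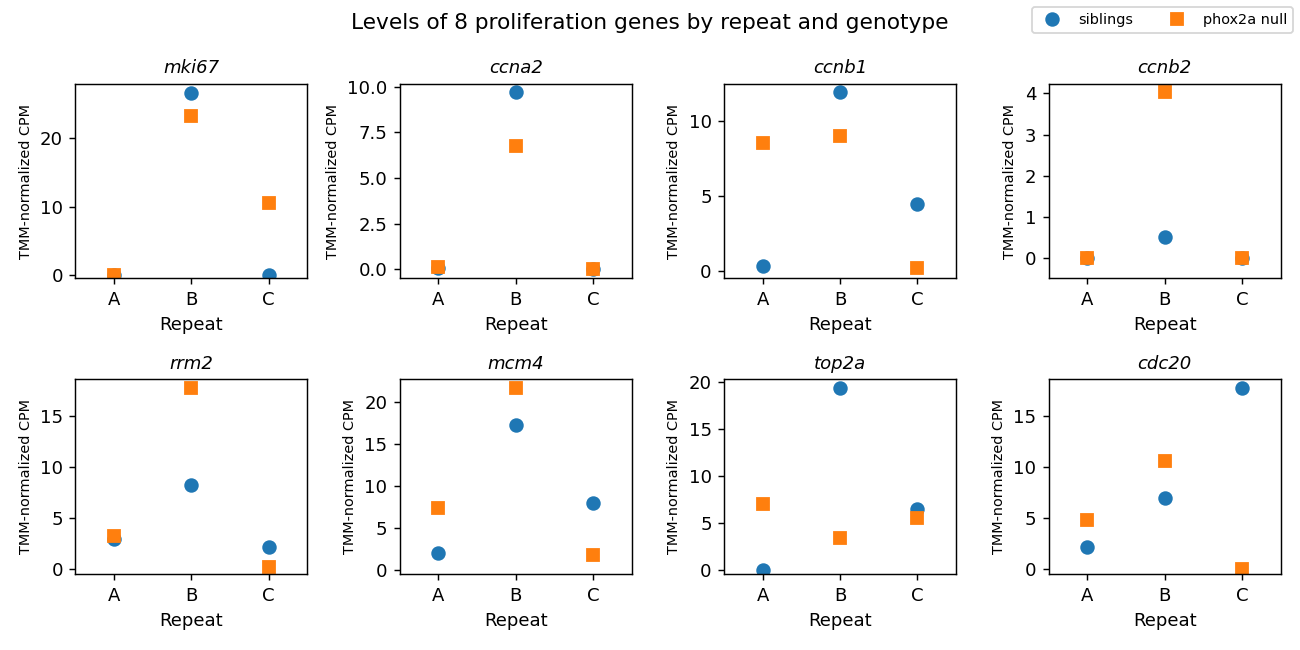
TMM-normalized CPM (vertical axes, each with its own scale) of 8 members in repeats A, B and C (horizontal axes), circles for siblings and squares for null larvae. *mki67*, *ccna2*, *ccnb1*, *ccnb2*, *rrm2* and *mcm4* peak in repeat B in both genotypes, *top2a* peaks there in siblings only, and *cdc20* peaks in sibling C and null B. The 8 are a selection. Over all 61 members with reads, 21 (34.4%) are highest in repeat B in both genotypes, and *pcna*, not shown, is highest in sibling A among siblings.

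Repeat B was the highest of the 3 in both genotypes for 21 of the 61 members with reads (34.4%), against 2807 of 23680 genes (11.9%). For repeat A this held for 2 members (3.28%, against 10.8% of genes), and for repeat C for none (against 6.81%). The 21 members included 3 of 7 origin genes, 6 of the 14 helicase genes with reads, 3 of 9 polymerase genes, 2 of 2 ribonucleotide reductase genes and 5 of 10 genes of S phase, G2 and mitosis, but 0 of 9 in the clamp, loader and single-strand binding group. These shares are a description over genes that were read from the same 6 libraries, with 1 library per genotype and repeat. A list of 34 further genes of G2 and mitosis, such as *cdk1* and *plk1*, had 18, 27 and 8 of them with reads in siblings A, B and C and 18, 25 and 8 in null A, B and C. Of these, 12 (35.3%) were highest in repeat B in both genotypes. Their summed level was 23.2, 160 and 25.8 CPM in siblings and 33.3, 179 and 188 CPM in null larvae. In null C, 71.5% of that sum was *aurka*, a mitotic kinase gene, and the rest came to 53.4 CPM. Among tested genes, repeat B was highest in both genotypes for 8 of 13 on this list. In the other lists described below it was 6 of 13 for S phase, 3 of 12 for Rb and E2F, and 1 of 13 for G1 kinases and inhibitors. Sparse genes could pass the read filter through repeat B itself. *nusap1*, for example, had 27, 448 and 0 reads in siblings and 0, 132 and 0 in null larvae. These counts of tested genes are therefore not set against a background, and nothing is drawn from them.

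Markers of other cells moved with the repeat in part. Of 18 markers of neural progenitors and radial glia, 15, 12 and 17 had reads in siblings and 16, 9 and 12 in null larvae. Their summed levels were 350, 169 and 463 CPM and 326, 262 and 1111 CPM, lowest in repeat B in both genotypes. The sum leaned on *fabp7a*, with 136, 3.33 and 126 CPM in siblings and 129, 33.4 and 153 CPM in null larvae. *cx43* gave 478 CPM in null C. Not all markers shared the order of the sum. *notch1a* was highest in repeat B in both genotypes, and *nes* was lowest in sibling B but highest in null B (9.91 and 74.4 CPM). The microglia and macrophage list of 7 genes summed to 29.4, 167 and 43.4 CPM in siblings and to 65.6, 97.3 and 0.610 CPM in null larvae, highest in repeat B in both. Almost all of it was *apoeb*, an apolipoprotein gene that other cells express as well, at 167 CPM in sibling B and 97.1 CPM in null B, whereas the defining marker *mpeg1.1* had at most 1 read in any library. Skin markers summed to 2785, 77.0 and 348 CPM in siblings and to 79.0, 5.73 and 3586 CPM in null larvae, lowest in repeat B. The 2 highest sums were mostly *krt4*, at 2547 CPM in sibling A and 2939 CPM in null C. Of the 7 skin markers with enough reads, 1, *tp63*, was highest in repeat B in both genotypes (7.66 and 3.86 CPM). *cldni*, with too few reads for the test, had 540 reads in sibling B and none elsewhere. Muscle markers were also lowest in repeat B, at 0.995 and 1.75 CPM. Oligodendrocyte lineage markers summed to 334, 372 and 459 CPM in siblings and 991, 583 and 743 CPM in null larvae. These, cartilage and connective tissue markers, and hair cell markers shared neither a highest nor a lowest repeat between genotypes. Erythroid and endothelial markers summed to at most 4.88 CPM in any library. The part of these cells in the levels of the cell cycle genes was not tested.

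**Figure D5:**
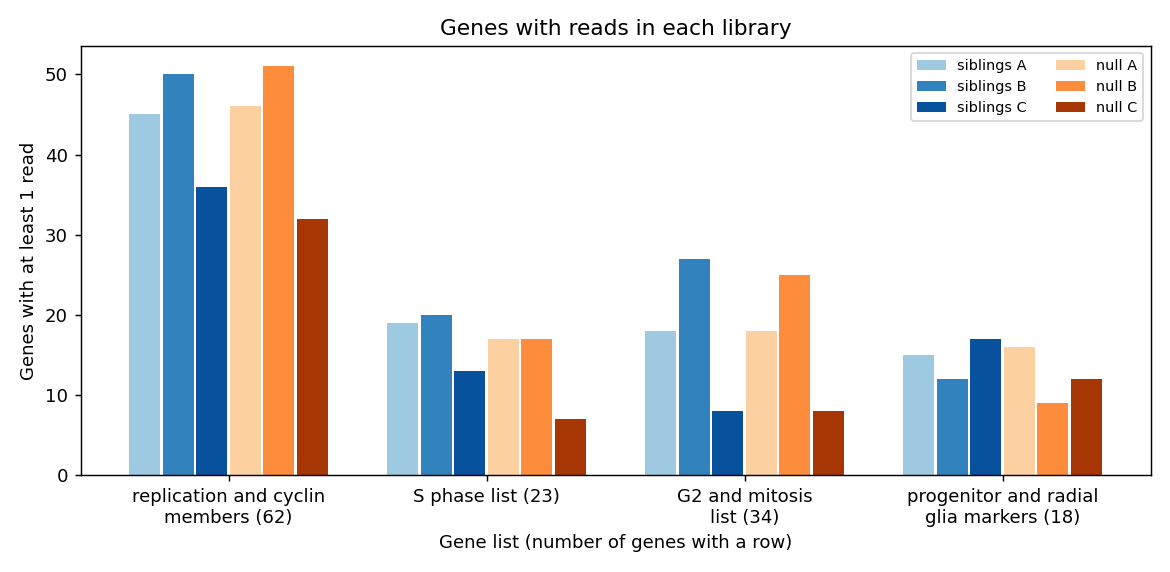
Number of genes with at least 1 read (vertical axis) in each of the 6 libraries (bars) for the 62 members, for the lists of other S phase and of other G2 and mitosis genes, and for progenitor and radial glia markers. The G2 and mitosis list reaches 27 and 25 genes in siblings B and null B and 8 in both libraries of repeat C, while the progenitor markers are fewest in null B.

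Other cell cycle genes were read from lists of S phase, of G2 and mitosis, of G1 kinases and inhibitors, and of the Rb and E2F factors, 91 genes with a row and 51 with enough reads. None was called. At an unadjusted edgeR p under 0.05, 1 of 51 was higher and 1 of 51 was lower, against 2.46% and 0.762% of all genes tested. Their median log2 fold change was -0.08, against -0.15 over all genes. The lower one was *ccng1*, which encodes cyclin G1, a target of p53 outside the core cycle. It had 2169, 5198 and 1532 reads in siblings and 1045, 342 and 51 in null larvae. Its level was 93.9, 225 and 74.1 CPM in siblings and 55.6, 20.6 and 10.4 CPM in null larvae, or 131 ± 82.0 against 28.8 ± 23.7 CPM (SD, n = 3 each). Every null library lay below every sibling library, also without TMM scaling and without null C. The log2 fold change of -2.18 (standard error 0.83) had an edgeR adjusted p of 1.00. It ranged from -3.12 to -1.54 with single libraries left out, and missed 0.05 before adjustment over all 4 repeats and without sibling B or null B.

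The higher one was *aurka*, with 0, 20 and 0 reads in siblings and 0, 201 and 660 in null larvae, so the genotypes overlapped in repeat A. Its log2 fold change of 7.36 (standard error 2.97, edgeR adjusted p = 1.00) was 4.34 without null C, and it missed 0.05 before adjustment with the repeat as a block, with library size alone, and without null C, sibling A or sibling C. *cdkn1ca*, which encodes an inhibitor of G1 kinases, had 92.3, 109 and 96.3 CPM in siblings and 126, 148 and 242 CPM in null larvae. Its log2 fold change was 0.79 (standard error 0.52), and the genotypes overlapped without TMM scaling. It was the only tested gene of these lists with all null libraries above all siblings, against 3.09% of all genes. All null libraries lay below all siblings for *ccng1*, *dhfr*, *e2f4*, *rb1* and *rbl1*, against 7.52% of all genes. Of these, only *ccng1* passed 0.05 before adjustment. The log2 fold change was -4.69 for *dhfr* (standard error 2.13) and -3.85 for *e2f4* (standard error 1.89).

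The 2 genes taken by spelling alone were read in all 6 libraries. *cdc73* had 75.5, 110 and 63.8 CPM in siblings and 67.6, 76.1 and 10.4 CPM in null larvae (log2 fold change -0.69, standard error 0.80). For *mcm3ap* the mean was 7.45 ± 2.52 CPM in siblings against 5.95 ± 5.31 CPM in null larvae (SD, n = 3 each). Neither passed the test, and both had a fitted value below 0.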

How the data were processed

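The authors sorted cells by FACS, made libraries with a low-input SMART-Seq HT kit with Nextera tagmentation, and aligned reads to GRCz11 with Kaede and GFP sequences added. The aligner and the counting program are not given in the sources used here. The deposited counts are whole reads per gene and library, not normalized, and whether counting used strand is not given. The authors' table of normalized values was not used. The 5 rows that name no gene held 41.2% to 84.3% of listed reads in the 6 libraries compared and were left out of totals and tests. The columns carry a run code rather than the replicate number of the labels, so repeats were lettered A to D in code order.

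The comparison of repeats A to C used edgeR 4.0.16 (filterByExpr, TMM, glmQLFit, glmQLFTest) with Benjamini-Hochberg adjustment over 14824 genes, in R 4.3.3, and standard errors were taken from the coefficient and its F statistic. The p-values measure the spread between libraries, each from separately collected larvae of 1 repeat. Alternatives were DESeq2 1.42.0, RLE size factors, library size alone, no filter, at least 10 reads in every library, a robust fit, all 4 repeats, the repeat as a block, and each library left out. DESeq2 was also the tool of the study. Pairing comes from the series design, in which each repeat gave both genotypes, and deviations from the genotype means correlated at 0.024, 0.082 and 0.053 in repeats A, B and C. The fit was also run on simulated counts as a check of the code. How many true changes it would recover at the spread of these data is not reported here. Folds against libraries without reads used 3 reads per library as a limit. That limit covers counting error and not the spread between libraries of the same genotype.

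Named with values were *pcna*, *mki67*, *top2a*, *rrm1*, *rrm2*, *mcm2* to *mcm7*, the cyclins, the member of each role with the most reads for its library sizes, and members at an unadjusted p under 0.05 or with genotypes that did not overlap. Other members were named for their role after their values were seen. Members and lists were chosen with earlier results of these data known. Values by transcript length and promoter sequence were not analysed here. Python 3.11.15 was used.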

Additional observations from a re-analysis of the deposited data

Results flagged for a closer look

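In repeat D, which entered no comparison, *pold1*, the catalytic subunit of polymerase delta, reached 22758 CPM of gene reads in the null library, 16732 of its 735217 gene reads or 2.28%, against 1 read in the sibling library of the same repeat and at most 7.97 CPM in any sibling library. Only 2214 genes had reads in that null library and 95.4% of its listed reads were not aligned. With repeat D included, 4 libraries against 4, edgeR called *pold1* at an adjusted p of 0.034 (log2 fold change 14.84, standard error 3.72). It was singled out as a signal in data outside the comparison that exceeded the level in the sibling libraries.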

How the results depend on the processing

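Genes called, 0 in the comparison reported, numbered 128 with DESeq2, the tool the study used, and 40 over all 4 repeats. Among them were the members *mcm10* and *pole* with DESeq2 and *pold1* over all 4 repeats. There were 0 with RLE size factors, library size alone, both filters, the robust fit and every fit that left out a library. Members at an unadjusted p under 0.05, 1 in the comparison reported, numbered 9 of 52 with DESeq2 (17.3%, against 5.66% of genes), 0 of 41 with library size alone (against 1.57%), 4 of 61 with no filter (6.56%, against 5.19%), and 2 of 13 with at least 10 reads in every library (15.4%, against 5.79%). With a library left out they numbered 2 to 4. Their share was 6.25% (against 1.77%) without sibling A, 4.44% (against 2.1%) without sibling B and 4.0% (against 1.83%) without sibling C. It was 3.92% (against 8.68%) without null A, 8.7% (against 6.31%) without null B and 3.85% (against 4.05%) without null C. With the repeat as a block, a paired analysis, no gene was called, 0 of 41 members reached that p (against 0.681% of genes), and the log2 fold change turned to -0.18 for *ccnb1*, 0.46 for *orc3*, -0.63 for *pcna*, -0.46 for *rrm2* and 0.42 for *top2a*.

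Single fitted log2 fold changes with other signs were 0.016 for *rrm1* with DESeq2 and 0.0195 with RLE size factors. With library size alone they were -0.0202 for *ccnb1*, -0.0024 for *cdc25b*, -0.0555 for *mki67* and -0.41 for *rpa1*, and over all 4 repeats 0.23 for *ccna1*, 0.20 for *ccne2*, -0.75 for *cdc25b*, 0.18 for *orc3* and 0.68 for *rrm1*. The median of the members was -0.13 with library size alone and -0.26 with the block, against 0.09 in the comparison reported. It ranged from -0.62 without null B to 0.80 without sibling B among fits that left out a library. The median of all genes was -0.36 with library size alone and -0.56 with the block, against -0.15. With single libraries left out, the ranges that crossed 0 were -3.59 to 0.27 for *ccna1*, -0.49 to 1.31 for *ccnb1*, -1.14 to 0.0899 for *ccnb3*, -0.0599 to 2.78 for *ccnd2a*, -1.10 to 0.65 for *ccne2*, -0.11 to 0.70 for *cdc25b*, -0.98 to 1.04 for *mcm4*, -8.68 to 0.0843 for *mcm5*, -2.71 to 0.91 for *mcm6*, -0.79 to 10.56 for *mki67*, -1.58 to 0.96 for *orc3*, -0.26 to 1.11 for *pcna*, -0.46 to 0.42 for *rpa1*, -2.56 to 0.56 for *rrm1*, -1.35 to 1.46 for *rrm2* and -1.34 to 0.70 for *top2a*. None of these was called, and the cause was not tested. Of the members, 21 did not pass the edgeR filter on low counts and 4 had reads in 1 library only.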

Other observations

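Repeat D gave reads on 7 members in siblings and on 4 in null larvae. The sibling library had 1731 reads of *cdc25b*, 1197 of *mcm7*, 421 of *rfc5* and 225 of *cdc73*, and 1 read each of *mcm2*, *pold1* and *ccna1*. The null library had 1 read each of *cdc25b*, *rrm1* and *ccna1* beside *pold1*. Neither library of repeat D had reads of *pcna*, *mki67*, *top2a* or any B, D or E cyclin.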
